A study of Homo sapiens with 4 samples.

Results

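Voltage-gated sodium channel genes were followed in SK-N-BE(2), a MYCN-amplified human neuroblastoma cell line, in which IRF2BP2 was lowered with a short hairpin RNA (shRNA). The 8 genes described are SCN1A, SCN2A, SCN3A, SCN7A, SCN8A and SCN9A, which encode alpha subunits, and SCN2B and SCN3B, which encode beta subunits. They were found by symbol among the 64252 gene rows of the count table, and all 8 had a row. The genes were chosen by their role in sodium current with the measured fold changes of this comparison already known, so their own differences are given as a description, with no p-value, and no test of theirs is used as support. The subunit genes SCN4A, SCN10A, SCN11A and SCN4B are set beside them.

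The series holds 4 RNA sequencing libraries in 2 groups of 2: SK-N-BE(2) cells given a scramble shRNA and SK-N-BE(2) cells given an shRNA against IRF2BP2. The labels name 1 cell line and 1 IRF2BP2 shRNA group, and give no time point or clone. Total counts lay between 30847699 and 34684651 per library, and the share of mitochondrially encoded counts between 6.42% and 7.27%. IRF2BP2, a transcriptional co-regulator, had 243 and 238 CPM (counts scaled to a common library size) with scramble and 89.6 and 87.5 CPM with its shRNA (log2 fold change -1.44, edgeR adjusted p = 5.87e-10). Of 9 adrenergic neuroblastoma markers all were measured, with a summed level of 2741 and 2981 CPM with scramble and 1651 and 1671 CPM with the shRNA, and 8 of the 9 fell (edgeR adjusted p under 0.05), where 21.4% of all genes tested were lower by this rule. Of the markers of other cell types, the endothelial gene PECAM1 and the T cell gene CD3E had no count in any library. The endothelial markers, with CDH5 and KDR at low counts, summed to at most 1.11 CPM. The Schwann cell markers summed to at most 2.66 CPM, and the leukocyte markers to at most 6.83 CPM. The 6 fibroblast markers summed to 319 and 303 CPM with scramble and to 270 and 271 CPM with the shRNA, but this sum covers opposite shifts: all 5 that were tested passed, with 2 higher and 3 lower. The collagen genes COL1A1 and COL3A1 rose, with log2 fold changes of 2.17 and 1.49 (edgeR adjusted p = 4.83e-08 and 1.23e-07). LUM, DCN and PDGFRB fell, with log2 fold changes of -1.03, -1.30 and -0.36 (edgeR adjusted p = 4.35e-08, 3.23e-04 and 4.62e-05). The part of these marker shifts in the results below was not tested. In bulk libraries, fewer cells that express a gene and less RNA of it per cell cannot be told apart.

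Voltage-gated sodium channels carry the fast inward current that starts an action potential. An alpha subunit forms the pore from 4 homologous domains, each with a voltage sensor, and the linker between domains III and IV swings in to block the pore within milliseconds of opening. Beta subunits are single-pass membrane proteins with an extracellular immunoglobulin fold that tune gating and bring channels to the surface. SCN1A, SCN2A, SCN3A and SCN8A are the alpha genes of the central nervous system, SCN9A is the main alpha gene of sympathetic and small sensory neurons, and SCN7A encodes an atypical channel that responds to sodium concentration. Neuroblastoma arises from the sympathetic lineage.

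The coding sequence shows how close the alpha genes are, which bears on how reads can be assigned to them. The longest coding transcript of each gene was compared (GENCODE release 29, GRCh38). Over all aligned coding bases, SCN2A was 84.2% identical to SCN3A, 83.7% to SCN1A, 78.5% to SCN9A, 73.3% to SCN8A and 68.3% to SCN7A. The beta genes SCN2B and SCN3B were 57.4% identical.

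Of all stretches of 75 coding bases, 5.53% in SCN3A, 3.30% in SCN2A, 3.29% in SCN9A and 2.57% in SCN1A also occur in another listed gene. In SCN7A, SCN8A, SCN2B and SCN3B there were 0 such stretches. How the authors' counting treated reads that fit several genes is not given in the sources used here. A small part of the counts of SCN2A, SCN3A and SCN9A is thus uncertain. For SCN1A, with 9 to 23 counts, reads from these more abundant genes could make up a larger part.

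SCN9A was by far the most abundant alpha gene in these cells, and most of the listed genes were lower with the IRF2BP2 shRNA. Levels between genes are compared here as TPM, a length-corrected level computed from the counts and the exon length of each gene. In the scramble libraries SCN9A had 35.2 and 34.1 TPM, followed by SCN3B (17.6 and 16.9), SCN3A (14.4 and 13.4), SCN8A (7.75 and 7.68), SCN2A (2.32 and 2.14), SCN2B (1.18 and 0.969), SCN7A (0.208 and 0.173) and SCN1A (0.128 and 0.0555). No neighbours in this order overlapped. The place of the beta genes in it depends on the length used, since SCN3B has 9464 exon but 645 coding bases, and SCN9A 13741 and 5964. With the shRNA the first 5 kept this order, and SCN7A (0.218 and 0.262 TPM) stood just above SCN2B (0.215 and 0.213 TPM). The order of SCN3A and SCN8A with the shRNA also depends on the length used. By coding length their mean shares of the summed alpha level there were 10.86% and 10.85%.

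**Figure D1:**
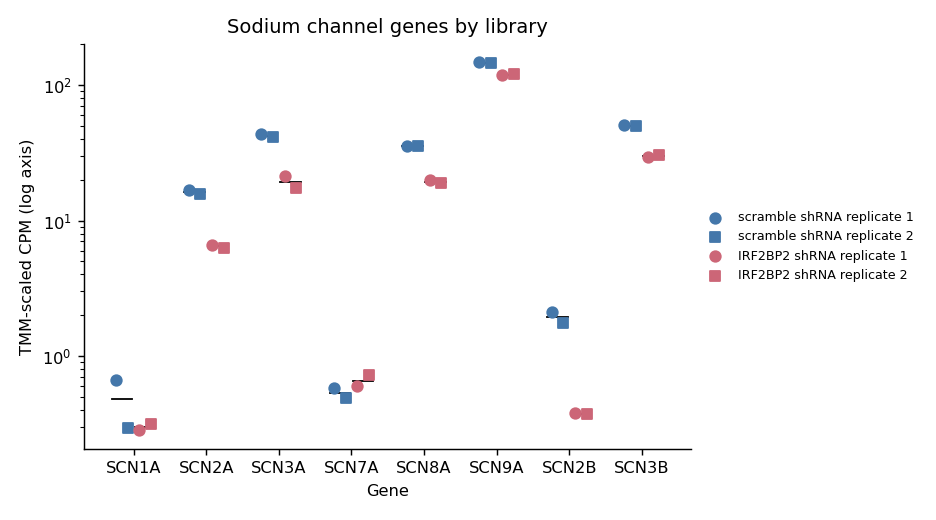
Level of each listed sodium channel gene in the 4 libraries, as CPM TMM-scaled, on a log axis; blue points are scramble and red points IRF2BP2 shRNA libraries (circle replicate 1, square replicate 2), and black bars are group means. In SCN2A, SCN3A, SCN8A, SCN9A, SCN2B and SCN3B both red points lie below both blue points.

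SCN2A encodes NaV1.2, a channel of the axon initial segment in excitatory neurons. It lies on chromosome 2 from 165194993 to 165392310 on the plus strand (GRCh38, ENSG00000136531). It had 16.8 and 15.8 CPM with scramble and 6.63 and 6.24 CPM with the shRNA. The groups did not overlap, and the log2 fold change, IRF2BP2 shRNA over scramble, was -1.34 (standard error 0.13, n = 2 per group), the most negative among the alpha genes.

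SCN3A encodes NaV1.3, an alpha subunit that is high before birth and low in the adult brain. It lies next to SCN2A on the minus strand, from 165087522 to 165204067 (ENSG00000153253). Its level was 43.4 and 41.2 CPM with scramble and 21.3 and 17.5 CPM with the shRNA, with no overlap (log2 fold change -1.12, standard error 0.10). The pair of shRNA libraries lay further apart here than for the other abundant members, and the log2 fold change was -1.27 without IRF2BP2 shRNA replicate 1 and -0.99 without replicate 2.

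SCN8A encodes NaV1.6, the main channel of mature nodes of Ranvier and distal initial segments. The gene lies on chromosome 12 from 51590266 to 51812864 on the plus strand (ENSG00000196876). It had 35.3 and 35.7 CPM with scramble and 19.8 and 18.8 CPM with the shRNA. Both shRNA libraries were below both scramble libraries, with a log2 fold change of -0.88 (standard error 0.08).

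SCN9A encodes NaV1.7, known for its part in pain signalling and sympathetic neurons, and is a minus-strand gene of chromosome 2, 166195185 to 166376001 (ENSG00000169432). It had 147 and 146 CPM with scramble and 119 and 121 CPM with the shRNA. The groups did not overlap, but the difference was small, with a log2 fold change of -0.29 (standard error 0.04) that left 81.8% of the scramble level. The exons of SCN9A share 1122 bases with the antisense gene SCN1A-AS1, whose mean count over the libraries was 8.75 against 4323 for SCN9A.

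SCN1A and SCN7A were close to the limit of detection. SCN1A, which encodes NaV1.1 of inhibitory interneurons (chromosome 2, 165984641 to 166149214, minus strand, ENSG00000144285), had 23 and 9 counts with scramble and 9 and 10 counts with the shRNA. The exons of SCN1A share 469 bases with SCN1A-AS1 on the opposite strand, whose mean count of 8.75 is close to the 12.8 of SCN1A. Whether the counting kept strand was not tested, so reads of the pair may be mixed there. The groups of SCN1A overlapped, its counts did not pass the filter on low values, and no fold change is given. SCN7A (chromosome 2, 166403573 to 166494326, minus strand, ENSG00000136546) had 20 and 15 counts with scramble and 19 and 23 with the shRNA, or 0.576 and 0.488 against 0.594 and 0.718 CPM. The SCN7A log2 fold change was 0.30 with a standard error of 0.45, so the difference was smaller than its error.

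SCN3B encodes the beta3 subunit, which binds alpha subunits without a covalent bond, and sits on chromosome 11, 123629187 to 123655244, minus strand (ENSG00000166257). It had 50.9 and 49.7 CPM with scramble and 29.7 and 30.5 CPM with the shRNA. All shRNA values were below all scramble values, with a log2 fold change of -0.74 (standard error 0.07). SCN2B encodes the beta2 subunit, which is joined to alpha subunits by a disulfide bond, and sits on the same strand at 118161951 to 118176673 (ENSG00000149575). SCN2B was much rarer, with 73 and 54 counts with scramble and 12 and 12 with the shRNA, or 2.10 and 1.76 against 0.375 and 0.375 CPM. Its log2 fold change of -2.35 (standard error 0.37) was the largest among the listed genes and left 19.4% of the scramble level.

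In the edgeR fit across all genes, 6 of the 7 listed genes that passed the filter had an adjusted p under 0.05, and all 6 were lower. By this rule 42.0% of the 19093 genes tested passed, 21.4% lower and 20.6% higher. Both shRNA libraries were below both scramble libraries in the same 6 genes, and in 36.0% of all genes tested, and above both in SCN7A and in 34.4% of all. SCN2A, SCN3A and SCN2B, 3 genes, were called and over 2-fold lower, as were 6.75% of all genes tested. SCN7A did not pass. Since this comparison was known when the genes were listed, that count is a description and nothing is read from it. The median log2 fold change was -0.88 over the 7 listed genes and -0.01 over all genes tested.

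**Figure D2:**
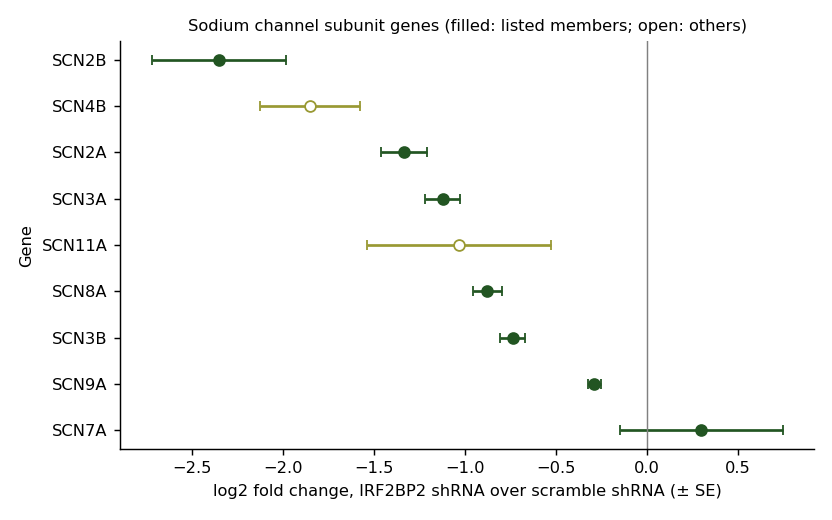
Log2 fold change of the sodium channel subunit genes described here that passed the filter on low counts (x axis, IRF2BP2 shRNA over scramble shRNA, bars are ± 1 standard error), with listed genes filled and SCN4B and SCN11A open. The values run from -2.35 for SCN2B to 0.30 for SCN7A, and the bars of SCN7A cross 0.

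Among the subunit genes set beside the listed ones, SCN4B, the gene of the beta4 subunit, which also binds alpha subunits through a disulfide bond, passed the test. It fell from 5.53 and 6.35 CPM with scramble to 1.19 and 2.09 CPM with the shRNA, a log2 fold change of -1.85 with a standard error of 0.27 (edgeR adjusted p = 2.23e-04). SCN4B lies 9063 bases from SCN2B on the same strand.

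The log2 fold change of SCN11A, a gene of pain-sensing neurons, was -1.04 (standard error 0.51, edgeR adjusted p = 0.127), at 1.07 CPM or less in all libraries. SCN4A of skeletal muscle and SCN10A of sensory neurons had 0 counts in every library, which allows a level of up to 0.0973 CPM in the shallowest library, counting error only.

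SCN9A made up a larger part of the alpha pool in the shRNA libraries. Its share was 54.8% and 54.9% of the summed TPM of the 10 alpha genes with scramble and 62.7% and 66.5% with the shRNA. The share of SCN3A was 22.5% and 21.7% with scramble and 15.7% and 13.4% with the shRNA, that of SCN8A 12.1% and 12.4% against 9.61% and 9.49%, and that of SCN2A 3.61% and 3.44% against 2.03% and 1.99%. In none of these 4 genes did the groups overlap, but the shares are parts of the same total and are not separate observations. In CPM, both shRNA libraries were below both scramble libraries in 36.0% of all genes tested and above both in 34.4%. The summed level of the alpha genes was 63.2 ± 1.48 TPM with scramble and 45.03 ± 1.48 TPM with the shRNA (SD, n = 2), and that of the 4 beta genes 21.8 ± 0.412 and 12.02 ± 0.381 TPM. These sums left 71.3% of the alpha and 55.1% of the beta level.

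**Figure D3:**
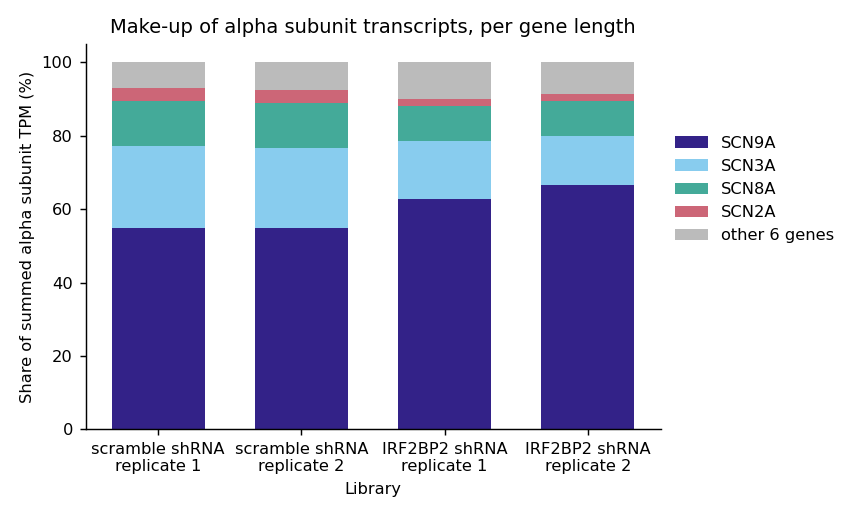
Share of each alpha subunit gene in the summed TPM of the 10 alpha genes (y axis, percent), as 1 stacked bar per library, with the other 6 genes pooled in grey. The SCN9A segment is taller in both IRF2BP2 shRNA bars (62.7% and 66.5%) than in both scramble bars (54.8% and 54.9%), and the SCN3A segment is shorter.

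Listed genes of one chromosomal cluster had fold changes of different size. SCN3A, SCN2A, SCN1A, SCN9A and SCN7A lie in a cluster of 1407 kb on chromosome 2, from 165087522 to 166494326. SCN3A and SCN2A are read in opposite directions and their annotated spans share 9075 bases, with no exon of one on an exon of the other. These neighbours had log2 fold changes of -1.12 and -1.34, while SCN9A and SCN7A at the far end had -0.29 and 0.30. The value of SCN7A comes from low counts and is smaller than its standard error of 0.45.

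The genes that border the listed genes moved in both directions. SLC38A11, a predicted amino acid transporter gene beside SCN3A, fell from 22.4 and 21.02 CPM to 9.47 and 9.30 CPM (log2 fold change -1.21, edgeR adjusted p = 3.79e-06). CSRNP3, on the other side of SCN2A, rose from 66.8 and 60.6 CPM to 127 and 130 CPM (log2 fold change 1.01, edgeR adjusted p = 5.34e-08). For TTC21B, a cilium gene beside SCN1A, the log2 fold change was -0.16 (edgeR adjusted p = 0.0915), and for GALNT3, inside the cluster, it was -0.21 (edgeR adjusted p = 0.773). XIRP2, beyond SCN7A, had 0 counts in every library. TTC21B, GALNT3 and XIRP2 fall outside the naming rule and are given for their position.

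Next to the other listed genes, SLC4A8, a bicarbonate transporter gene before SCN8A, fell by 0.31 on the log2 scale (edgeR adjusted p = 0.00177), and GRAMD1B, a cholesterol transfer gene before SCN3B, fell by 0.43 (edgeR adjusted p = 0.00240). ZNF202, a zinc finger gene after SCN3B, rose by 0.47 (edgeR adjusted p = 3.62e-04). In all, 7 of 9 neighbours with a row were tested, 2 rose and 4 fell, with SCN4B among the latter, beside the 42.0% of all genes tested that passed.

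**Figure D4:**
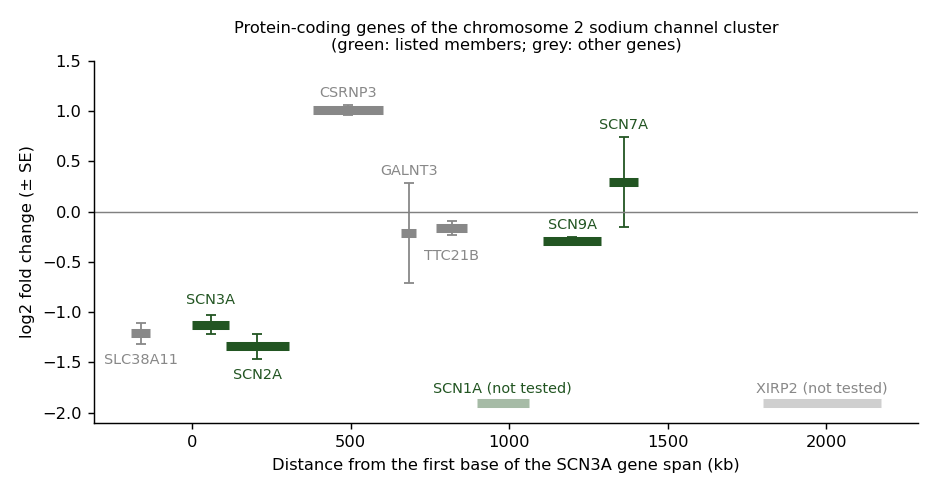
Log2 fold change (y axis, IRF2BP2 shRNA over scramble shRNA, thin bars are ± 1 standard error) of protein-coding genes in and beside the chromosome 2 cluster against distance in kb from the first base of the SCN3A span, with thick bars as long as the gene. SCN3A and SCN2A lie near -1.12 and -1.34, CSRNP3 at 1.01 and SCN9A at -0.29; SCN1A and XIRP2 did not pass the filter and are drawn at the bottom without a value.

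The sequence before annotated transcription starts differed widely among the listed genes. RefSeq start windows on GRCh38.p14 were matched for 6 of the 8, and SCN3A and SCN3B had none in the table. Stretches before a start of SCN2A, SCN9A and SCN8A are shown because they run from the AT-rich to the GC-rich extreme. The SCN2A window begins at 165239164, well inside a gene span that starts at 165194993, and SCN2A has another window further in. Which start these cells use was not tested. Only the part of each window of 250 bases that holds no annotated untranslated exon is given, and capitals mark the SP1 box GGGCGG on either strand, where overlapping copies run together.

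SCN2A, chr2:165239164-165239371, plus strand: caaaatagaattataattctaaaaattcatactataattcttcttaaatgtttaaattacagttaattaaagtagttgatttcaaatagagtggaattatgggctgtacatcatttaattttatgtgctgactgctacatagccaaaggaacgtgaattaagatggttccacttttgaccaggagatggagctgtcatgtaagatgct

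SCN9A, chr2:166376002-166376194, minus strand: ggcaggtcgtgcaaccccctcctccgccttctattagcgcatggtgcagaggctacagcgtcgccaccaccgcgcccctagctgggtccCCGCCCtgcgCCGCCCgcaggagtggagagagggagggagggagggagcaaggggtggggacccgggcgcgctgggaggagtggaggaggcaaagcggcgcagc

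SCN8A, chr12:51591000-51591223, plus strand: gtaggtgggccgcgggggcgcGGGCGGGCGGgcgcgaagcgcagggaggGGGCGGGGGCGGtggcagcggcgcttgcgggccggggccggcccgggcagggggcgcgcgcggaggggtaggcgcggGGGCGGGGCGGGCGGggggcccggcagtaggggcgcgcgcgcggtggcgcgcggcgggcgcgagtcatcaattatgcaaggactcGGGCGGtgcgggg

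The GC content of the 250 bases was 29.2% for SCN2A (32.0% for its other window), 74.0% for SCN9A and 85.6% for SCN8A. The median over 35116 windows was 58.0%. The SCN8A window held 45 CG pairs and the SCN9A window 22, against 1 in SCN2A, 0 in SCN2B and a median of 11. SP1 boxes numbered 9 in SCN8A, 2 in SCN9A and 0 in the SCN2A and SCN2B windows, and 42.6% of all windows held at least 1. The 17-base consensus of RE1, the element bound by the repressor REST, was searched on both strands. It was in 0 of the windows of the 6 listed genes and in 0.0570% of all windows, which says only that it is not in these 250 bases. The GC content was 38.0% for SCN2B, and lay between for the start windows of SCN1A (33.6% and 45.6%) and SCN7A (38.8% and 62.4%), of which the last held 2 SP1 boxes.

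The cytosolic proteins that bind or turn over the channels were mostly lower. Of 12 listed genes 10 were tested, of which 8 fell, 1 rose and 1 did not pass, with a median log2 fold change of -0.46, where 21.4% of all genes tested were lower and 20.6% higher. FGF14, a fibroblast growth factor homologue that stays in the cell and binds the tail of alpha subunits, fell from 30.2 and 26.8 CPM to 8.56 and 7.59 CPM (log2 fold change -1.82, standard error 0.11, edgeR adjusted p = 2.10e-07). Its relatives are named here outside the naming rule. FGF11 fell from 33 and 41 counts to 8 and 1 (log2 fold change -2.98, standard error 0.65, edgeR adjusted p = 0.00346), at low counts. Its log2 fold change was -5.02 without IRF2BP2 shRNA replicate 1 and -2.17 without replicate 2. Of its 5565 exon bases, 4175 are shared with another annotated gene on the same strand. That gene had a mean count of 16.75 against 20.75 for FGF11, so the assignment of reads to FGF11 is uncertain. FGF12 and FGF13 had at most 3 counts in any library.

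CALM2, a gene of the calcium sensor calmodulin, fell by 0.42 on the log2 scale (edgeR adjusted p = 2.11e-06). Calmodulin genes are near-identical in coding sequence, so the assignment of reads to it is uncertain. NEDD4L, a ubiquitin ligase that removes sodium channels from the membrane, fell from 18.3 and 19.2 CPM to 10.1 and 9.02 CPM (log2 fold change -0.97, edgeR adjusted p = 3.83e-05). Its relative NEDD4, the 1 gene of the list that rose, went from 37.9 and 32.9 CPM to 47.5 and 49.4 CPM (log2 fold change 0.45, edgeR adjusted p = 8.21e-04), and was named after its values were seen.

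Scaffold and adhesion genes of the axon initial segment and the node of Ranvier, where sodium channels gather, had 9 of 12 tested genes lower, 2 higher and 1 without a call. Their median log2 fold change was -0.61, and 21.4% of all genes tested were lower and 20.6% higher. CNTN1, an adhesion molecule that binds sodium channels at the cell surface, fell from 199 and 201 CPM to 52.9 and 53.2 CPM (log2 fold change -1.92, standard error 0.04, edgeR adjusted p = 3.98e-11). L1CAM fell from 210 and 211 CPM to 73.5 and 76.4 CPM (log2 fold change -1.49, edgeR adjusted p = 4.72e-10). ANK2, an ankyrin that links membrane proteins to the spectrin skeleton, fell by 0.72 on the log2 scale (edgeR adjusted p = 9.48e-07).

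NRCAM, which helps to gather channels at the node and is a relative of L1CAM, rose from 182 and 168 CPM to 352 and 332 CPM (log2 fold change 0.97, standard error 0.05, edgeR adjusted p = 6.02e-08). The list thus held close relatives with opposite signs. The rest of the list was named after its values were seen. Those that fell were ANK3, the ankyrin of the initial segment (log2 fold change -0.50, edgeR adjusted p = 7.06e-06), SPTBN4 (-1.36, edgeR adjusted p = 0.00234), NFASC (-1.17, edgeR adjusted p = 5.55e-05), CNTN2 (-2.33, edgeR adjusted p = 2.48e-05), SPTAN1 (-0.16, edgeR adjusted p = 0.00571) and CNTNAP1 (-0.22, edgeR adjusted p = 0.0217). SPTAN1 lost its call without IRF2BP2 shRNA replicate 2 (edgeR adjusted p = 0.0938). CNTNAP1 lost it by DESeq2 (adjusted p = 0.0855) and without scramble replicate 2 or either IRF2BP2 shRNA replicate (edgeR adjusted p = 0.0627 to 0.0799). CNTNAP2 rose (log2 fold change 0.96, edgeR adjusted p = 1.50e-06). TRIM46, a microtubule organiser of the initial segment, did not pass (-0.04, edgeR adjusted p = 0.767).

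Most auxiliary genes of the sodium leak channel, a related channel that sets resting excitability, were lower, while the pore gene was hardly read. Of 4 tested genes 3 fell and 1 did not pass, where 21.4% of all genes tested were lower and 20.6% higher. NALCN, the pore gene, had at most 3 counts in any library. UNC79 fell from 16.1 and 14.5 CPM to 5.75 and 4.81 CPM (log2 fold change -1.53, edgeR adjusted p = 7.55e-06) and UNC80 from 16.6 and 15.1 CPM to 6.94 and 7.71 CPM (log2 fold change -1.12, edgeR adjusted p = 3.45e-05). NALF1 fell by 0.64 on the log2 scale (edgeR adjusted p = 1.31e-05), and NALF2 had a log2 fold change of -0.11 and did not pass (adjusted p of 0.662 by edgeR).

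Of 8 tested genes that pump or exchange sodium out of the cell, 2 rose, 2 fell and 4 did not pass, with a median log2 fold change of 0.06, where 42.0% of all genes tested passed. With IRF2BP2 shRNA replicate 1 or replicate 2 left out, 1 rose, and without scramble replicate 1, 3 rose and 1 fell. ATP1B3, a beta subunit of the sodium pump, rose from 122 and 120 CPM to 156 and 155 CPM (log2 fold change 0.36, edgeR adjusted p = 1.40e-05). SLC8A2, a sodium-calcium exchanger gene that fell by 1.39 on the log2 scale (edgeR adjusted p = 0.00986), did not pass without scramble replicate 1 (edgeR adjusted p = 0.0548) or by DESeq2 (adjusted p = 0.0691).

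Of the 8 secretase genes whose products cleave beta subunits, 1 was higher, 2 were lower and 5 had no call, around a median log2 fold change of -0.01. That share is near the 42.0% called among all genes tested and is no result about the secretases. BACE1, the beta-secretase, for which beta subunits are substrates, fell from 175 and 174 CPM to 131 and 133 CPM (log2 fold change -0.40, edgeR adjusted p = 6.41e-06). BACE1 shares 1239 exon bases with RNF214 on the opposite strand (mean count 1297 against 4971 for BACE1). Whether the counting kept strand was not tested, so reads there are uncertain. APH1B, a subunit of gamma-secretase, fell by 1.30 on the log2 scale (edgeR adjusted p = 3.73e-06). ADAM10 rose by 0.16 (edgeR adjusted p = 0.0124), but did not pass without IRF2BP2 shRNA replicate 1 (edgeR adjusted p = 0.162).

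REST, a repressor that silences neuronal genes outside neurons and was first studied on a sodium channel gene, rose from 27.0 and 24.1 CPM to 51.01 and 48.9 CPM (log2 fold change 0.97, standard error 0.08, edgeR adjusted p = 2.15e-06). REST shares 23 exon bases with NOA1 on the opposite strand. Among the 10 genes of REST and its corepressors, 5 rose, 2 fell and 3 did not pass, with a median log2 fold change of 0.10, where 20.6% of all genes tested were higher. Without scramble replicate 1, or without IRF2BP2 shRNA replicate 2, 3 rose. HDAC1, a histone deacetylase, rose by 0.39 on the log2 scale (edgeR adjusted p = 6.08e-05). SIN3A, a scaffold of a corepressor complex, fell by 0.50 (edgeR adjusted p = 5.58e-06) and RCOR2 by 0.61 (edgeR adjusted p = 6.59e-06).

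Neuronal splicing regulators had 7 of 10 tested genes lower, 2 higher and 1 without a call. Their median log2 fold change was -0.48. Among all genes tested, 21.4% were lower and 20.6% higher. SRRM4, which drives neuronal microexon splicing and the splicing of REST itself, fell from 24.2 and 21.8 CPM to 8.28 and 7.87 CPM (log2 fold change -1.51, standard error 0.11, edgeR adjusted p = 9.47e-07). NOVA2, a neuronal RNA-binding protein, fell from 7.14 and 6.80 CPM to 1.09 and 1.25 CPM (log2 fold change -2.57, edgeR adjusted p = 3.23e-06). RBFOX2, which regulates neuronal exons, fell by 0.60 on the log2 scale (edgeR adjusted p = 9.52e-07) and MBNL2 by 0.37 (edgeR adjusted p = 4.30e-04). Counts per gene do not show which exons of the sodium channel genes were used.

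**Figure D5:**
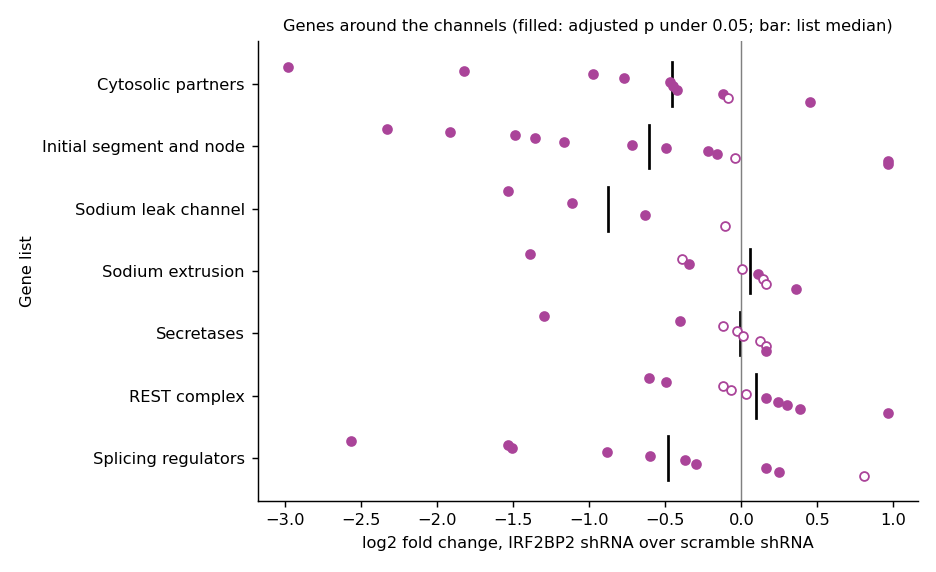
Log2 fold change (x axis, IRF2BP2 shRNA over scramble shRNA) of each tested gene in 7 lists of genes around the channels, filled where the edgeR adjusted p was under 0.05, with a black bar at the list median. The medians of the leak channel (-0.88), initial segment and node (-0.61), splicing (-0.48) and cytosolic partner (-0.46) lists lie left of 0, and those of sodium extrusion (0.06) and REST complex (0.10) lists lie right of it.

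The genes most like 2 of the listed genes across the 4 libraries were found by the distance between log2 CPM values centred on each gene's mean, among 12451 other protein-coding genes with a mean of at least 1 CPM. For SCN9A, the listed gene with the highest level, they were DNAJC5, a synaptic vesicle chaperone gene (log2 fold change -0.28), GNB1, a G protein subunit gene (-0.30), and EEF1A1, a translation factor gene (-0.28), at distances of 0.00658, 0.0114 and 0.0119. For SCN2B, the listed gene with the most negative log2 fold change, they were AMPD3 (-2.14), the neuropeptide gene VIP (-2.30) and DAAM2 (-2.24), at distances of 0.141, 0.147 and 0.149. All 4 libraries enter these distances, so they describe the same difference between groups as the fold changes do.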

How the data were processed

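RNA of 4 SK-N-BE(2) samples was extracted with TRIzol and sequenced after the TruSeq RNA kit, per the labels' protocols. The labels say only that the samples are separate, so p-values measure the spread between these samples, which may be technical. Reads were aligned with HISAT2 2.2.0 to hg38, per the submitters' processing notes, while for the counter and its annotation these sources give no name. The authors deposited 1 table of whole-number counts per gene, with no normalization, whose columns named NC were taken as the scramble samples. Replicates differed by more than counting noise (chi-square per degree of freedom 7.51 and 5.50). Their number, 2 per group, limits the precision.

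Counts were scaled with TMM and tested with the quasi-likelihood F-test of edgeR 4.0.16 after its filter on low counts, with Benjamini-Hochberg adjustment over all 19093 genes tested and a threshold of 0.05. The standard error is the log2 fold change over the square root of F. CPM and TPM were computed from the counts, TPM with GENCODE 29 exon lengths. The channel genes and gene lists were chosen with earlier results of these data known. Named were the channel genes, IRF2BP2, up to 4 called genes with the smallest p in each list, other subunit and leak channel genes, REST, RBFOX2, called neighbours, and the 3 genes nearest in pattern to the channel genes with the highest level and the largest log2 fold change of each sign (at a mean of 1 CPM or more, none was positive). Distances used a prior count of 2. DESeq2 1.42.0, other filters, a replicate block, other gene lengths and leaving out each library were tried. Some genes that the rule names are not reported here.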

Additional observations from a re-analysis of the deposited data

How the results depend on the processing

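With 2 libraries per group, small differences and genes under about 1 CPM (SCN1A, SCN7A, SCN11A) were not resolved. The number of genes called by edgeR was 8016, and ranged from 6412 to 8037 over the alternatives (6438 by DESeq2, 6412 to 7477 with a library left out). In each alternative 6 listed genes were called. With the replicate block 7902 genes were called, and the block changed no call of a named gene; same-numbered libraries shared only a number (correlation of deviations 0.06). Of the named genes' values, 470 kept direction and side of the threshold, 10 lost the call (among them those given beside SLC8A2, ADAM10, SPTAN1 and CNTNAP1) and 2 reversed, both of genes that were not called. With a library left out, TRIM46 ranged from -0.081 to 0.012 (above 0 without scramble replicate 1) and GALNT3 from -0.74 to 0.18 (above 0 without IRF2BP2 shRNA replicate 2) in log2 fold change. The shares of the alpha genes depended on the gene length used, by construction. With the length of the longest transcript, the scramble and IRF2BP2 shRNA means were 58.2% and 67.8% for SCN9A, 18.0% and 11.7% for SCN3A, 11.9% and 9.21% for SCN8A, and 5.40% and 3.04% for SCN2A. With coding length they were 57.6% and 67.6%, 16.5% and 10.9%, 13.9% and 10.9%, and 6.34% and 3.60% in the same order of genes.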
